A study of Mus musculus with 6 samples.

Results

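Myosin II is the motor protein that pulls on actin filaments, and the transcripts of its non-muscle and smooth muscle forms were examined here in blood-forming cells of mice with and without the transcription factor SRF. The set holds 9 genes: the heavy chain genes Myh9, Myh10 and Myh11, the light chain genes Myl6, Myl9, Myl12a and Myl12b, the kinase gene Mylk, and Ppp1r12a, the gene of the targeting subunit of myosin phosphatase. Its members are the 22 probe sets that name 1 of these genes and no other, out of 45037 probe sets on the array after removal of the Affymetrix controls. The rule that picked the probe sets uses gene names and no measured values. The genes themselves, and the lists of related genes below, were chosen with earlier results of these data known. A further 2 probe sets that name Myl6 together with other genes were not used.

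Expression was measured on 6 arrays of LSK cells (lineage-negative, Sca1-positive, c-Kit-positive), the bone marrow fraction that contains hematopoietic stem cells and multipotent progenitors. The SRF-null group (3 arrays) came from Srf flx/flx;Mx1-Cre mice and the control group (3 arrays) from Srf+/+;Mx1-Cre mice, all of the C57BL/6 strain. Both groups carried Mx1-Cre, which is driven by an interferon-inducible promoter and so is active in many cell types besides LSK cells, and both received pIpC as 3 injections of 200 µg at intervals of 2 days from the age of 6 weeks. Cells were sorted 35 days after the last dose from pooled animals, and the labels do not say how many animals each pool held or whether the pools were independent, so the spread behind each p-value may be technical.

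A myosin II molecule pairs heavy chains with essential and regulatory light chains, and many molecules assemble into a filament. Phosphorylation of the regulatory light chain by myosin light chain kinase and other kinases switches the motor on, and myosin phosphatase switches it off. In blood cells myosin II takes part in cell division, migration and, in megakaryocytes, the control of platelet release. SRF is known to act on cytoskeletal genes through an element called the CArG box, and Myl9, Myh9 and Myh11 are known as SRF targets in other cell types, mostly smooth muscle, fibroblasts and megakaryocytes.

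Since the CArG box is the element through which SRF is known to act, the windows were searched for it and the stretches with a match are shown. It was searched, on both strands at once since the element is its own reverse complement, from 250 bases before to 50 bases after each RefSeq transcription start (build GRCm38.p6). A full match was found in 1.63% of all 32851 windows, and in 2 of the 9 windows of the myosin genes, which cover 8 genes. Those were the window of Myl9, with 1 match that begins 161 bases before the start, and 1 of the 2 windows of Myl6, with a match 50 bases before the start. The Srf gene itself had 2 matches, 82 and 62 bases before its start. The capitals mark the CArG box. The Myl9 stretch lies at chr2:156775214-156775407 on the plus strand, the Myl6 stretch at chr10:128493040-128493069 on the minus strand and the Srf stretch at chr17:46556215-46556244 on the minus strand.
Myl9: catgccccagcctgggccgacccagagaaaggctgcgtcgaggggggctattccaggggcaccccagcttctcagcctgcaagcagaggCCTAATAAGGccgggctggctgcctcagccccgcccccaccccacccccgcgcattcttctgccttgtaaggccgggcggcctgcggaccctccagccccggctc
Myl6: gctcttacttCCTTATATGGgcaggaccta
Srf: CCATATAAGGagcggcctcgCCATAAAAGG

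A match describes the letters of a window and is not evidence of binding. The windows of Myh9, Myh10, Myl12a, Myl12b, Mylk and Ppp1r12a held no full match, which says nothing of elements elsewhere in these genes.

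The arrays were comparable in median signal, and 2 of them stood apart in the transcripts of sex-linked genes. Median signals were 218.4 to 270.2 on SRF-null arrays and 200.4 to 292.2 on control arrays before normalization. On SRF-null replicate 1 Xist was at 5.03, where all others lay between 15.13 and 16.24. On control replicate 2 the Y-linked gene Eif2s3y was at 4.37, where all others lay between 13.06 and 14.50, so these arrays carried the transcripts of 1 sex and the other 4 those of both. The LSK markers Kit, Cd34 and Flt3 were bright on every array, with means of 14.89, 16.85 and 15.43 in SRF-null cells and 15.09, 16.74 and 15.31 in control cells, while Ly6a, the gene of Sca1, was not analysed here. Slamf1, listed with these markers, read 11.61, 10.73 and 9.18 on the SRF-null arrays and 11.60, 12.33 and 11.80 on the control arrays. Its difference was −1.40 (SE 0.62, limma p 0.0643), and SRF-null replicate 1 lay inside the control range. Srf was at 12.58, 12.43 and 12.80 on the SRF-null arrays and at 13.04, 13.00 and 13.04 on the control arrays on its brighter probe set (difference −0.42, SE 0.14), and differed by 0.10 (SE 0.35) on the dimmer one. Neither passed the test (limma adjusted p = 1.0 for both), and since the sources do not place the probes inside or outside the floxed segment, they do not check the deletion.

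Across the whole set, no myosin transcript differed between genotypes by more than the test could separate from the spread between arrays. By limma, 0 of 22 probe sets passed an adjusted p of 0.05, and so did 0% of all probe sets. At an unadjusted p under 0.05 there was 1 of the 22 (4.55%), a Mylk probe set with lower signal in SRF-null cells, against 4.39% of all probe sets (2.37% higher and 2.02% lower). The arrays of the genotypes did not overlap for 3 of the 22 (13.6%), 2 higher and 1 lower, against 9.24% of all probe sets (4.74% higher and 4.5% lower). Both shares of the members lie near the background. Differences were positive for 12 probe sets and negative for 10, with a median of 0.01 (0.00 over all probe sets) and a median size of 0.17 (0.15 over all probe sets). All values are normalized log2 signals, differences are SRF-null minus control, and intervals are 95% intervals from the limma fit without adjustment for the number of probe sets. In sorted pools a smaller share of cells with a transcript and less of it per cell cannot be told apart.

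The arrays bound the size of a difference in signal for the probe sets that lie well above the offset of 16. Of the 19 probe sets that were at a signal of 16 or more on every array, 16 had an interval within 2-fold in either direction and 6 within 1.5-fold. The 16 include Mylk 1425504_at, with an interval of −0.97 to 0.31 at signals of 21.2 to 52.1, where the offset also compresses differences. Its difference of −0.33 was −0.47 with an offset of 1, so its interval does not bound the signal at 2-fold. The intervals that reached past 2-fold were those of the brighter Myh10 probe set, the Myl6 probe set and the middle Mylk probe set. The remaining 3, Myl9 and the dimmer probe sets of Myh10 and Myh11, were under 16 on 4 or all of the arrays, where the offset of 16 compresses any difference and the interval gives no bound in fold.

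**Figure D1:**
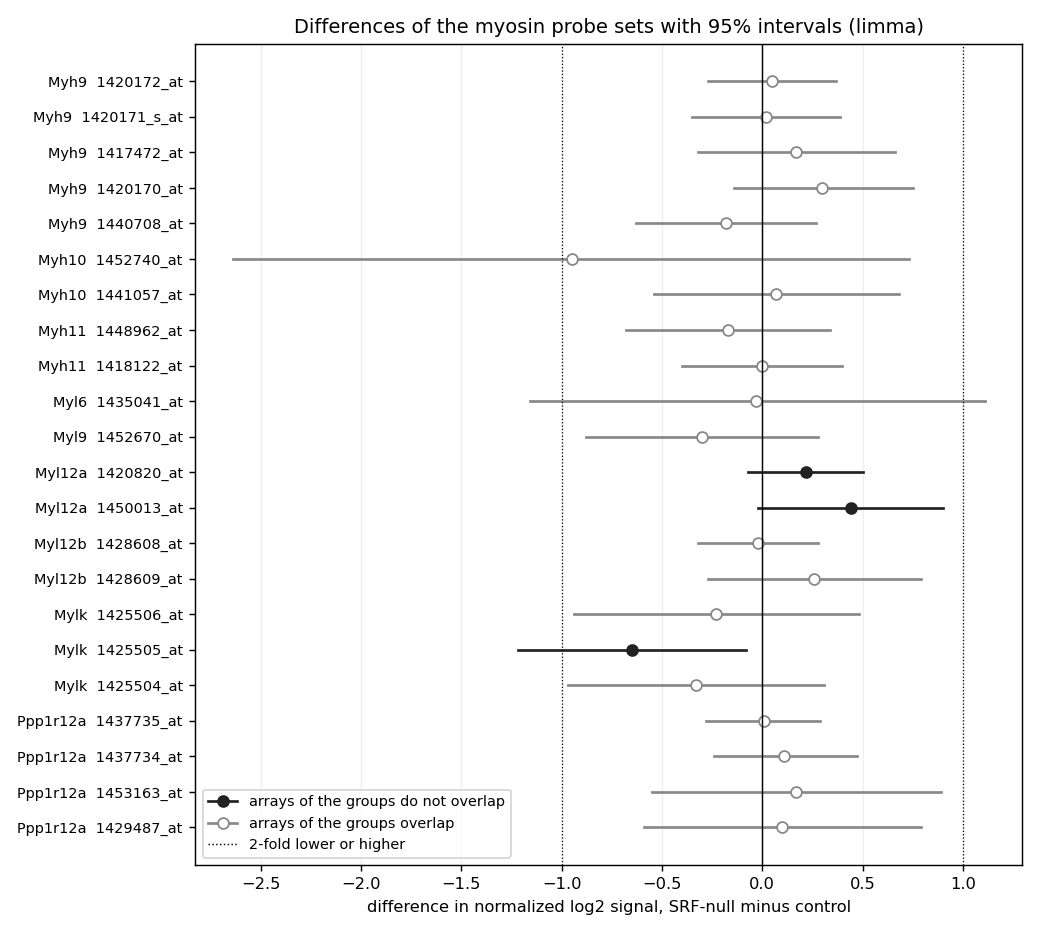
Differences of the 22 myosin probe sets in normalized log2 signal (x axis, SRF-null minus control), 1 row per probe set ordered by gene and brightness, with 95% limma intervals as bars and filled points where the arrays of the genotypes do not overlap. All intervals except that of Mylk probe set 1425505_at include 0, and the intervals of Myh10 1452740_at, Myl6 1435041_at and Mylk 1425505_at reach past the dotted 2-fold lines.

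Myh9, the heavy chain of non-muscle myosin IIA, which is the main form in blood cells, gave some of the brightest signals on the array, and its 3 bright probe sets differed little between genotypes. Its brightest probe set (1420172_at) lay above 99.3% of all probe sets and read 17.03, 17.19 and 16.91 on the SRF-null arrays, against 17.02, 17.04 and 16.93 on the control arrays. The arrays of the genotypes interleave, and the SRF-null range encloses the control range. The difference was 0.05 (interval −0.27 to 0.37), or 1.21-fold lower to 1.29-fold higher. Probe set 1420171_s_at gave 0.02 (SE 0.15) and 1417472_at 0.17 (SE 0.20). On 1417472_at control replicate 2 was the lowest array at 14.35, and the others lay between 14.72 and 15.04.

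The other 2 Myh9 probe sets were dimmer and differed in opposite directions. Probe set 1420170_at read 10.15, 10.22 and 10.27 on SRF-null arrays and 9.59, 9.95 and 10.19 on control arrays, a difference of 0.30 (SE 0.18). Its genotypes overlapped only because control replicate 3 reached the SRF-null level. On 1440708_at the difference was −0.18 (SE 0.18), with SRF-null replicate 3 at 6.68 and all other arrays between 7.16 and 7.28.

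The transcripts whose pattern over the 6 arrays was most like that of Myh9 on its brightest probe set were those of Gpalpp1, Mtmr12, Cacul1, Ppm1b and Pfdn5. Likeness was the root-mean-square difference of log2 values after centring each probe set on its own mean, and it was 0.022, 0.026, 0.026, 0.028 and 0.030 for these 5 among 19403 probe sets above the median brightness. Myh9 itself varied by only 0.09 over the 6 arrays, so these are transcripts that vary as little. The nearest probe set of another myosin gene was Ppp1r12a 1437735_at, at 0.095 and rank 1111.

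Myh10, the heavy chain of non-muscle myosin IIB, which is known in mice from neurons and embryonic tissue and is switched off during megakaryocyte maturation, varied most of all members. Probe set 1452740_at read 9.26, 11.30 and 11.28 on the SRF-null arrays, against 10.90, 12.48 and 11.33 on the control arrays. SRF-null replicate 1 is lowest and control replicate 2 highest, while the other 4 arrays lie between 10.90 and 11.33, and the genotypes overlap. The mean was 10.62 ± 1.17 in SRF-null cells and 11.57 ± 0.82 in control cells (SD, n = 3 each), a difference of −0.95 with an interval of −2.64 to 0.73 (limma adjusted p = 1.0). Those 2 arrays are the ones that carried transcripts of 1 sex, and without both of them the difference was 0.18, while it was −0.28 without SRF-null replicate 1 alone and −0.50 without control replicate 2 alone; the part of sex in it was not tested. The second probe set, 1441057_at, was under a signal of 16 on all 6 arrays, where the scale flattens, and differed by 0.07 (SE 0.25).

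Myh11, the smooth muscle heavy chain, was dim in these cells in both genotypes. Probe set 1448962_at read 7.02, 7.59 and 7.53 on the SRF-null arrays and 7.36, 7.54 and 7.76 on the control arrays, with SRF-null replicate 1 lowest and the genotypes overlapping (difference −0.17, SE 0.21). Probe set 1418122_at was under a signal of 16 on all 6 arrays and differed by 0.00 (SE 0.16). Both were designed from 1 source sequence, according to the platform annotation.

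**Figure D2:**
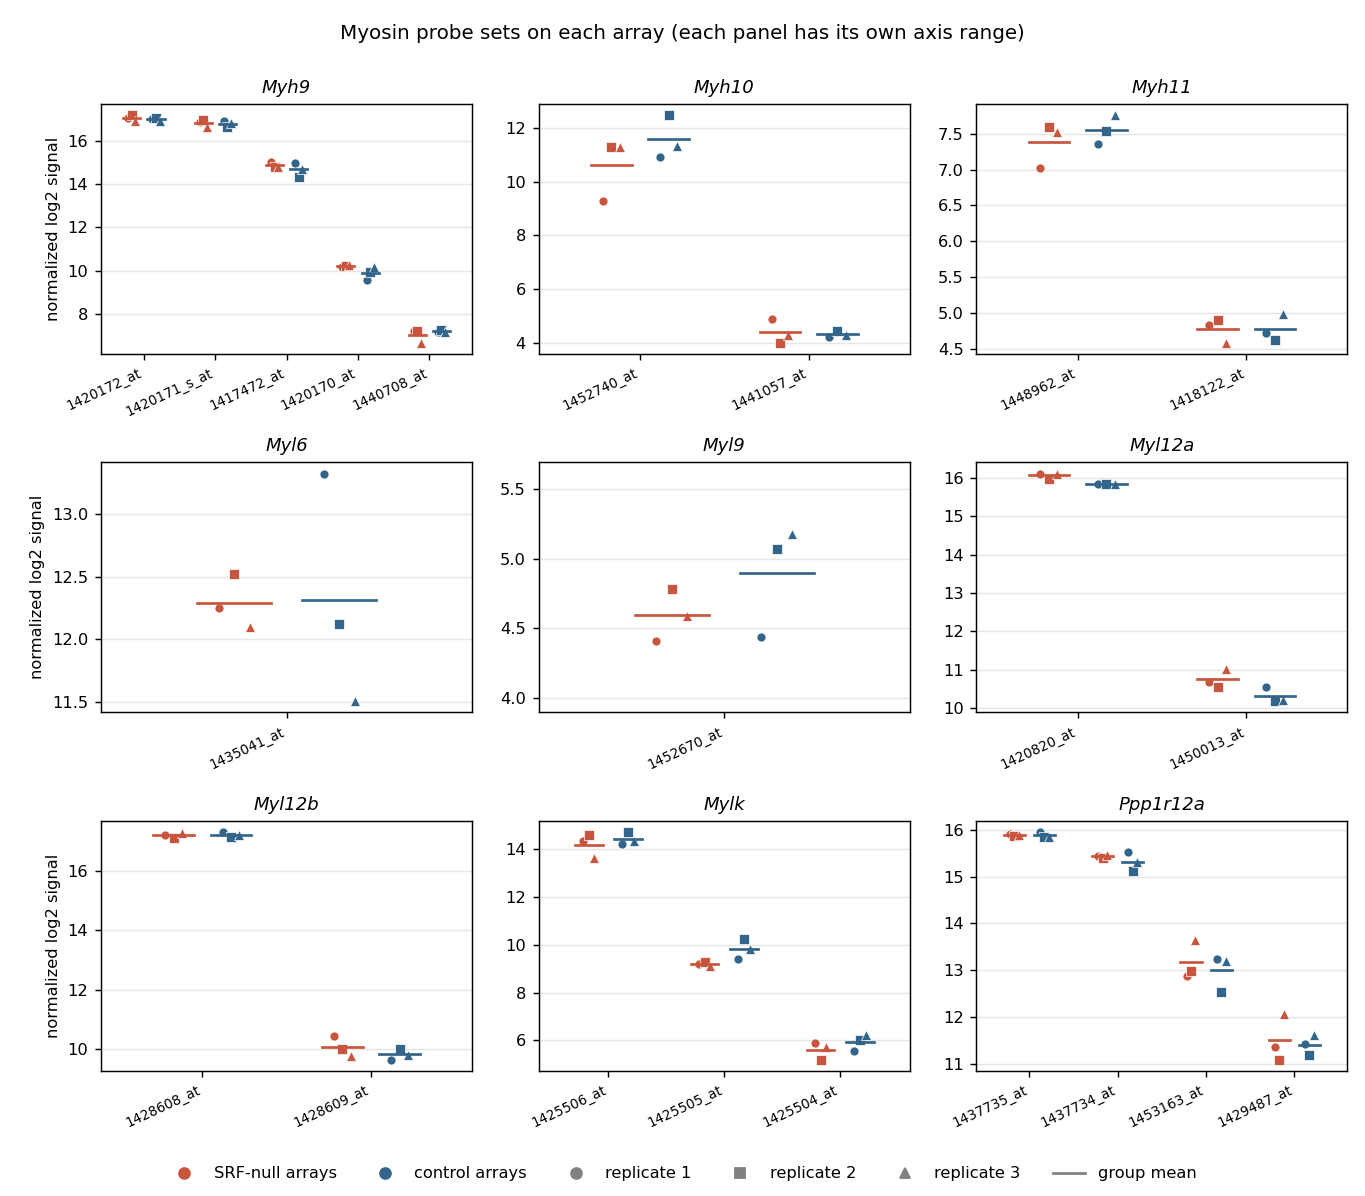
Normalized log2 signal (y axis, its own range in each panel) of every myosin probe set (x axis) on each array, SRF-null arrays to the left of control arrays, with the replicate number as the symbol and the group mean as a line. The symbols of the genotypes interleave for most probe sets, separate for Myl12a and for Mylk 1425505_at, and spread most for Myh10 1452740_at (9.26 to 12.48); brightness is not comparable between probe sets.

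Among the light chains, the essential light chain gene Myl6 was read by a single probe set of its own, which was too variable to bound a difference closely. It was at 12.25, 12.52 and 12.10 on the SRF-null arrays, against 13.32, 12.12 and 11.51 on the control arrays, so that the 3 control arrays enclose the SRF-null ones. The difference was −0.03 with an interval of −1.16 to 1.11. Without control replicate 1 it was 0.48 and without control replicate 3 it was −0.43.

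Myl9, the regulatory light chain of smooth muscle and of platelets and, like Myl6, a member with a CArG box shown above, was at the bottom of the scale. It read 4.41, 4.78 and 4.59 on the SRF-null arrays and 4.44, 5.07 and 5.18 on the control arrays, and was under a signal of 16 on 4 of the 6. Control replicates 2 and 3 are the highest arrays, and control replicate 1 lies among the SRF-null arrays. The difference of −0.30 (interval −0.88 to 0.28) depends on the offset added before the logarithm (−0.63 when it is 1, −0.12 when it is 64), so its size cannot be read as a fold change of the transcript.

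The non-muscle regulatory light chain genes Myl12a and Myl12b are direct neighbours on chromosome 17, the chromosome that also carries Srf, 405 genes away from the nearer of them in gene order. Their products are closely similar proteins, and cross-hybridization between their transcripts was not tested. Myl12a was the 1 member whose probe sets both lay higher on every SRF-null array. Its brighter probe set, 1420820_at, read 16.11, 15.97 and 16.11 on the SRF-null arrays, against 15.83, 15.85 and 15.85 on the control arrays. The control arrays lie within 0.02 of each other and 0.119 below the lowest SRF-null array. The difference was 0.22 (interval −0.07 to 0.50), 1.16-fold, with a limma p of 0.111 and an adjusted p of 1.0.

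The dimmer Myl12a probe set, 1450013_at, read 10.67, 10.56 and 11.02 on the SRF-null arrays and 10.56, 10.18 and 10.21 on the control arrays. Here the genotypes are separated by a gap of only 0.005, between SRF-null replicate 2 and control replicate 1. The difference was 0.44 (interval −0.02 to 0.90), 1.35-fold, with a limma p of 0.0589 and an adjusted p of 1.0. The annotation gives 1 source sequence for both probe sets, so they are not independent measurements of the gene, and neither result passed the test over all probe sets. Of all probe sets 4.74% had every SRF-null array above every control array.

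Myl12b left little room for a difference on its brighter probe set. Probe set 1428608_at, brighter than 99.5% of the array, read 17.21, 17.11 and 17.26 on the SRF-null arrays and 17.30, 17.15 and 17.20 on the control arrays. The genotypes interleave, and the difference of −0.02 had an interval of −0.32 to 0.28, or 1.25-fold lower to 1.22-fold higher. The dimmer probe set 1428609_at differed by 0.26 (SE 0.22), with SRF-null replicate 1 at 10.45 and the other 5 arrays between 9.64 and 10.01.

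Mylk encodes myosin light chain kinase, the enzyme that phosphorylates the regulatory light chains, and its 3 probe sets all differed in the same direction, towards lower signal in SRF-null cells. The clearest was 1425505_at, at 9.19, 9.27 and 9.10 on the SRF-null arrays, against 9.41, 10.26 and 9.83 on the control arrays. The SRF-null arrays lie close together, each below the lowest control, and the controls are spread over more of the scale (9.19 ± 0.08 against 9.83 ± 0.42, SD, n = 3 each). The difference was −0.65 (SE 0.23, interval −1.22 to −0.08), a signal 1.57-fold lower, with a limma p of 0.0319 that did not pass adjustment over all probe sets (adjusted p = 1.0, and 0.503 to 1.0 over 15 alternatives). Without control replicate 2 it was −0.43.

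The brightest Mylk probe set, 1425506_at, did not separate the genotypes. It read 14.34, 14.61 and 13.64 on SRF-null arrays and 14.20, 14.72 and 14.35 on control arrays, a difference of −0.23 (SE 0.29) that came mostly from SRF-null replicate 3 and was 0.05 without it. The dimmest, 1425504_at, differed by −0.33 (SE 0.26) at signals of 5.20 to 5.90 on SRF-null arrays and 5.55 to 6.21 on control arrays. All 3 were designed from 1 source sequence. Mylk gives rise to long, short and C-terminal products, and the files do not say which of them each probe set reads.

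Ppp1r12a, also called Mypt1, guides the phosphatase to myosin and one of its probe sets had the narrowest range of the 22. Probe set 1437735_at read 15.91, 15.87 and 15.88 on the SRF-null arrays and 15.95, 15.85 and 15.84 on the control arrays, all 6 within 0.11 of each other. The difference was 0.01 (interval −0.28 to 0.29). Probe set 1437734_at differed by 0.11 (SE 0.15), 1453163_at by 0.17 (SE 0.29) and 1429487_at by 0.10 (SE 0.28), and on the last 2 SRF-null replicate 3 was the highest array, at 13.65 and 12.07. All 4 differences were positive and all 4 intervals include 0.

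Replicate numbers are shared between the genotypes and same-numbered arrays had correlated deviations, so differences were also taken within each number. The sample titles state no pairing, and it was inferred from these same values, so it is not established. For 7 of 22 probe sets (31.8%) the 3 differences had 1 sign, 4 of them higher and 3 lower, where 28.2% of all probe sets did. The 4 were 1417472_at and 1420170_at of Myh9 and both probe sets of Myl12a, and the 3 were Myh10 1452740_at, Myl9 and Mylk 1425505_at. For Mylk 1425505_at the differences were −0.22, −0.99 and −0.73, and for Myl12a 1420820_at they were 0.28, 0.12 and 0.26. For Myh10 1452740_at they were −1.64, −1.18 and −0.04, the third pair being near 0. With the replicate number as a block 2 of 22 probe sets had an unadjusted p under 0.05, against 7.08% of all probe sets. They were Mylk 1425505_at (0.0275) and Myh10 1452740_at (0.0462), with limma adjusted p-values of 0.671 and 0.702.

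**Figure D3:**
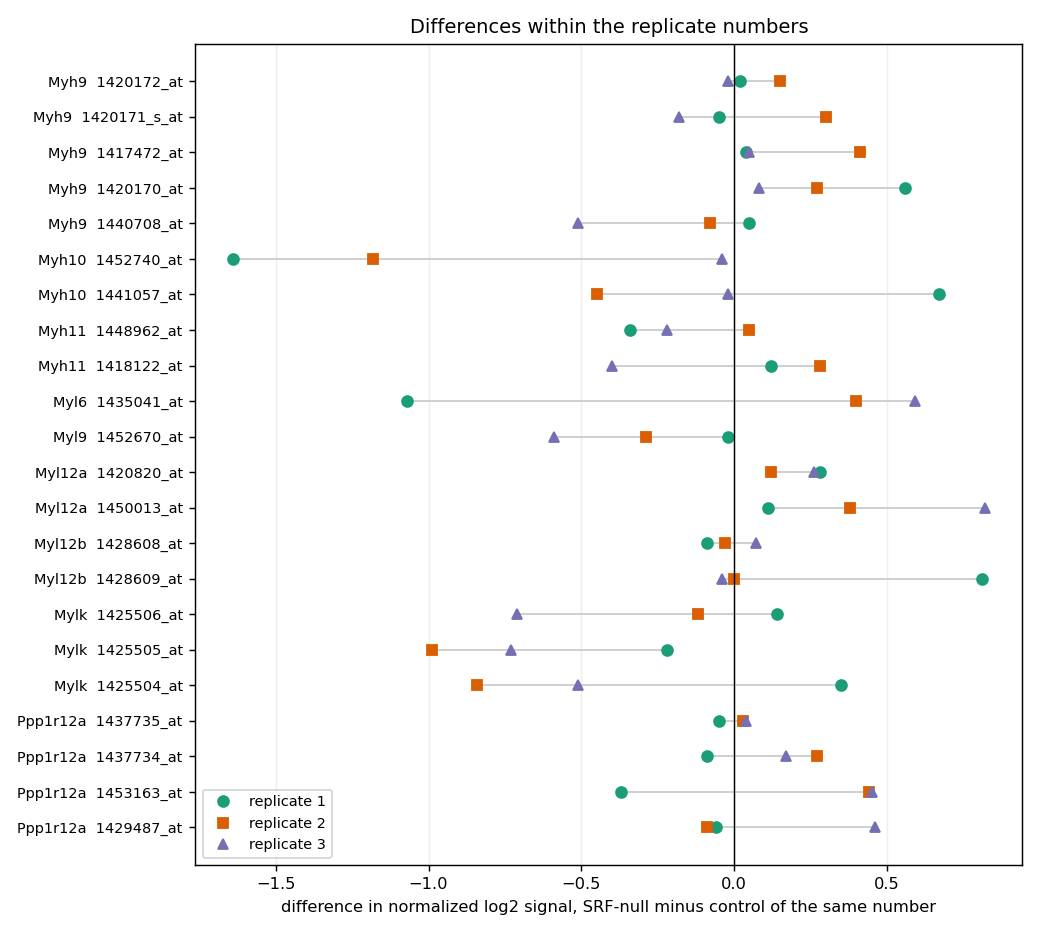
Difference in normalized log2 signal between the SRF-null and the control array of the same replicate number (x axis) for each of the 22 myosin probe sets (y axis), 1 symbol per number. The 3 symbols fall on 1 side of 0 for 7 probe sets, and for Myl6 1435041_at they run from −1.07 to 0.59.

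Genes that act on myosin II or beside it were taken from 6 lists with 75 measured genes, each by its brightest probe set. By limma, 0 of 75 passed an adjusted p of 0.05, as did 0% of all genes. At an unadjusted p under 0.05 stood 5, of which 4 were higher and 1 lower, against 4.95% of all genes. The genotypes did not overlap for 7 with higher and 5 with lower signal, where 10.6% of all genes had no overlap. The median difference was 0.03, against −0.01 over 18193 genes.

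Among kinases that act on the light chain 8 of 12 measured genes had positive differences, with a median of 0.07. Cit, whose product citron kinase acts at the cleavage furrow, differed by 0.61 (SE 0.21), with 13.38, 13.32 and 13.15 on SRF-null arrays above 12.55, 12.40 and 13.07 on control arrays. Its 3 other probe sets differed by 0.16, 0.29 and 0.04. Cdc42bpa differed by −0.27 (SE 0.20) and Pak2 by −0.13 (SE 0.12).

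In the phosphatase list 5 of 10 genes had positive differences, with a median of 0.00. Mprip, which links myosin phosphatase to actin filaments, had the smallest p of the 75 genes, at 14.91, 14.88 and 14.77 on the SRF-null arrays, against 15.30, 15.43 and 15.30 on the control arrays. Both groups are tight (14.86 ± 0.07 against 15.34 ± 0.07, SD, n = 3 each) and well apart, with a difference of −0.49 (SE 0.12), 1.40-fold lower, a limma p of 0.00691 and an adjusted p of 0.991. Its dimmer probe sets differed by −0.20 (SE 0.19) and 0.43 (SE 0.46), the last under a signal of 16 on 3 of the 6 arrays. Ppp1r12c, a relative of the member Ppp1r12a, differed by −0.22 (SE 0.12), Ppp1r14b by 0.26 (SE 0.23), and Ppp1r14c was under a signal of 16 on all arrays.

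Of the other conventional myosin chains, Myl10, a regulatory light chain first described in precursor lymphocytes, was bright and variable. It read 14.67, 17.26 and 15.61 on the SRF-null arrays and 16.85, 17.67 and 17.18 on the control arrays, a difference of −1.38 (SE 0.66) with a limma p of 0.0807 and with SRF-null replicate 2 inside the control range. Myl6b (0.13, SE 0.48) and Myh14 (−0.09, SE 0.41) gave wide estimates. The sarcomeric chains of heart and skeletal muscle had 8 of 14 measured genes with positive differences, and 6 of the 14 were under a signal of 16 on every array. None reached an unadjusted p under 0.05, and the smallest p-values belonged to Myh7b (−0.78, SE 0.40), Mylpf (0.39, SE 0.23), Myl2 (−0.54, SE 0.34) and the dim Myh8 (0.22, SE 0.15).

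Among proteins that bind myosin or its filaments 6 of 13 genes had positive differences. Lima1, an actin filament binder, differed by 0.82 (SE 0.30) on its brightest probe set and by 0.51 (SE 0.25), 0.02 (SE 0.35) and 1.16 (SE 0.57) on dimmer ones. Its dimmest probe set differed by −0.55 (SE 0.24) but was under a signal of 16 on 5 of the 6 arrays. Unc45b, a myosin chaperone, differed by −1.80 (SE 0.91), Specc1 by 0.36 (SE 0.21) and Shroom3, an actin-binding protein, by 0.31 (SE 0.19). Among unconventional myosins, single motors that carry cargo or link membranes to actin, 11 of 23 had positive differences. Myo1h differed by 0.33 (SE 0.12), Myo1g by −0.30 (SE 0.14) and Myo1d by −0.76 (SE 0.42), each without overlap between genotypes. Myo16 differed by 0.61 (SE 0.17), also without overlap, but was under a signal of 16 on all arrays.

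**Figure D4:**
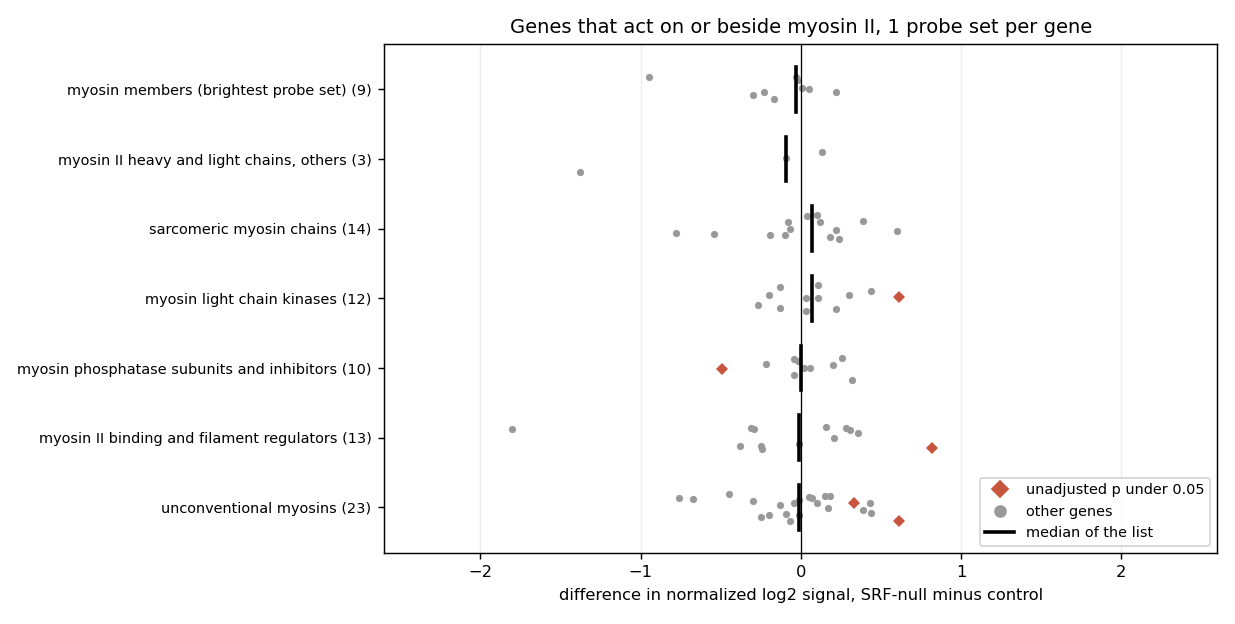
Difference in normalized log2 signal, SRF-null minus control (x axis), of each gene in the myosin set and in 6 lists of related genes (y axis, number measured in brackets), 1 point per gene at its brightest probe set with small vertical jitter, and the list median as a bar. The medians lie between −0.09 and 0.07, and the 5 genes at an unadjusted p under 0.05 include Lima1 at 0.82 and Mprip at −0.49.

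Markers of cell types that are rich in these myosins were read beside the members, and their part in the values above was not tested. Of 12 smooth muscle and mural markers 8 had positive differences, and Des, Lmod1, Myocd and Rgs5 were under a signal of 16 on all 6 arrays. Their summed signal was 19600 to 28576 on SRF-null arrays and 13387 to 16668 on control arrays, most of it from Pdgfrb (14.39 ± 0.32 in SRF-null cells and 13.75 ± 0.18 in control cells, SD, n = 3 each). At an unadjusted limma p under 0.05 stood 2 of the 12, against 4.95% of all genes. They were Pdgfrb, higher in SRF-null cells (0.65, SE 0.21), and Notch3, lower (−0.74, SE 0.29). Of 10 megakaryocyte and platelet markers 7 had positive differences, and the summed signal was 29685 to 69285 on SRF-null arrays and 29383 to 51312 on control arrays, with Gp6 under a signal of 16 throughout. The only 1 of these 10 at an unadjusted limma p under 0.05 was Itgb3, with lower signal in SRF-null cells (−0.71, SE 0.27). Of 10 monocyte and macrophage markers 7 had positive differences, with a median of 0.54, and 3 of them had an unadjusted p under 0.05, against 4.95% of all genes. Mrc1 differed by 2.08 (SE 0.55) and C1qa by 1.70 (SE 0.56), both without overlap between genotypes, C1qb by 1.87 (SE 0.89) and Adgre1 by 1.40 (SE 0.57), and none passed the test (limma adjusted p = 1.0 for each). Between the arrays numbered 1 the differences were smaller, at 0.38 for Mrc1, 0.16 for C1qa, −0.04 for C1qb and 1.01 for Adgre1. Negative differences were those of Cd14 (−0.66, SE 1.36), Fcgr1 (−0.43, SE 0.48) and Lyz2 (−0.07, SE 0.16). The summed signal of the 10 markers was 102790 to 107643 on SRF-null arrays and 94511 to 109229 on control arrays, most of it from Lyz2. Of 7 mature lineage markers 7 had positive differences, as did 8849 of 18193 genes. Their sums were 76704 to 84357 on SRF-null arrays and 56303 to 66819 on control arrays, most of it from Nkg7. Cd4 (1.11, SE 0.34) and Nkg7 (0.40, SE 0.13) had an unadjusted limma p under 0.05, 2 of the 7 against 4.95% of all genes. Both were without overlap between genotypes, where 10.6% of all genes were, and neither passed adjustment. The signal at the 3′ end over that at the 5′ end of the Actb control probe sets was 1.00, 1.51 and 0.93 on the log2 scale on SRF-null arrays and 1.18, 1.45 and 1.35 on control arrays, which overlap.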

How the data were processed

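The deposited table gives, for each of 6 arrays, a linear signal intensity for every probe set. The unit was read from the values, and the authors' summary algorithm and scaling were not given in the sources used here. Of 45101 probe sets 64 Affymetrix controls were left out, 34945 of the rest named 1 gene in the platform annotation, 932 several and 9160 none. All 9 myosin genes matched the RefSeq gene table (GRCm38.p6) by gene ID.

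Intensities were converted to log2(value + 16), which understates differences of dim probe sets, and quantile normalized, since array medians differed by 0.51. SRF-null and control arrays were compared by lmFit and eBayes of limma 3.58.1 (R 4.3.3), with genotype as the only term, two-sided. The fit ran over all 45037 probe sets with Benjamini-Hochberg adjustment and a threshold of 0.05. Its code was checked on simulated arrays with known changes, which does not measure its power for differences as small as those of the members. List genes stand by their probe set of highest mean. The number of arrays limits the precision, and no detection calls were used.

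The members and lists were chosen with earlier results of these data known. The text names every member, Srf, up to 4 genes of smallest p per list and the 5 nearest patterns to Myh9, except that some items are not reported here. Same-numbered arrays had deviations from their group means that correlated at 0.473, 0.210 and 0.427 over all probe sets for numbers 1, 2 and 3. The numbers were therefore also taken as pairs, a pairing that the sample titles do not state. Alternatives changed the offset, normalization, filter, probe set choice, variance model, pairing and the arrays used. Figures were drawn with matplotlib 3.10.9.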

Additional observations from a re-analysis of the deposited data

How the results depend on the processing

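No myosin probe set passed an adjusted p of 0.05 under any of the 16 alternatives that could be computed for it (smallest adjusted p 0.503), and neither did any list gene. Over all probe sets 1 passed with median centring (Mocs1) and 1 without control replicate 2 (Ccnb1ip1), both named after their values were seen, so the count without 1 array ranged from 0 to 1. Members at an unadjusted limma p under 0.05 numbered 3 of 22 with an offset of 64, against 4.84% of all probe sets, and 2 of 22 with the replicate block, against 7.08%. They numbered 0 of 9 with 1 probe set per gene, against 5.73% of genes. When SRF-null replicate 1 and control replicate 2 were both left out there were 0 of 22, against 2.87% of all probe sets. Without 1 array there were 0 to 3, the 3 being without control replicate 1, where 7.61% of all probe sets were called. Members without overlap numbered 1 of 9 with 1 probe set per gene, against 10.6% of genes, and 3 to 9 of 22 without 1 array. The 9 arose without control replicate 1, where 24.9% of all probe sets had no overlap. Without any other single array 15.9% to 20.3% of all probe sets had none. Of 22 member differences 9 kept their sign throughout, among them both Myl12a probe sets (0.20 to 0.27 and 0.30 to 0.57) and Mylk 1425505_at (−0.87 to −0.43).

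The other 13 changed sign under at least 1 alternative, and the cause was not tested. With an offset of 1 Myh10 1441057_at was −0.27 and Myh11 1418122_at 0.00054. Myh11 1418122_at was 0.02 with no normalization, 0.0012 with median centring and 0.06 with centring on the 75th percentile, where Myl12b 1428608_at was 0.02; Ppp1r12a 1437735_at was −0.01 with median centring. With SRF-null replicate 1 and control replicate 2 both left out, Myh9 1420171_s_at and 1417472_at were −0.08 and −0.09, Myh10 1452740_at 0.18 and 1441057_at −0.12, Myh11 1448962_at 0.0028 and Ppp1r12a 1437735_at −0.02. Without 1 array in turn the ranges of those that changed sign were −0.02 to 0.12 for Myh9 1420172_at, −0.05 to 0.12 for Myh9 1420171_s_at, −0.18 to 0.26 for Myh10 1441057_at, −0.28 to 0.01 for Myh11 1448962_at, −0.08 to 0.11 for Myh11 1418122_at, −0.43 to 0.48 for Myl6 1435041_at, −0.05 to 0.03 for Myl12b 1428608_at, −0.43 to 0.05 for Mylk 1425506_at, −0.01 to 0.04 for Ppp1r12a 1437735_at, −0.07 to 0.32 for Ppp1r12a 1453163_at, −0.18 to 0.31 for Ppp1r12a 1429487_at and −0.20 to 0.40 for Srf 1418256_at. Dim probe sets limit what can be said of Myl9, Myh11 and Myh10 1441057_at.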
